A study of Homo sapiens with 12 samples.

Results

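The genes described here are 9 human genes of plasminogen activation and blood coagulation, measured in cultured kidney tubular cells after an inflammatory cytokine or a glucose transport inhibitor. They were taken by name: every probe for a human transcript whose gene name on the array is PLAU, PLAUR, PLAT, SERPINE2, SERPINB2, F3, TFPI, TFPI2 or THBD. The array holds 25992 gene names, of which these are 9, read by 13 probes. Each IL-1β array and each Empa array was set against the control array of the same slide.

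Plasminogen is a circulating proenzyme that urokinase (PLAU) and tissue-type plasminogen activator (PLAT) cleave to plasmin, a protease that dissolves fibrin and degrades extracellular matrix. PLAUR is the cell surface receptor of urokinase, and the serpins SERPINE2 and SERPINB2 inhibit the activators. Coagulation starts when tissue factor (F3) binds factor VII(a), which TFPI restrains, while TFPI2 is a related inhibitor of plasmin and other serine proteases found in extracellular matrix and THBD (thrombomodulin) turns thrombin towards the activation of protein C. Urokinase is made by kidney tubular cells and passes into urine, and fibrin deposition and matrix turnover are studied in injured kidneys.

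The 12 one-color oligonucleotide arrays hold RNA of 2 human proximal tubular cell lines, HK-2 (made immortal with papillomavirus genes) and RPTEC/TERT1 (made immortal with telomerase), both models of a tubular cell without its tissue. After 24 h without serum and supplements and a change of medium, the cells of all groups were kept for another 24 h without a ligand (control), with IL-1β (10 ng/mL), a pro-inflammatory cytokine, or with Empa (empagliflozin, 500 nM), an inhibitor of the sodium-glucose cotransporter SGLT2. No array holds cells that received both agents. Each of the 6 groups of line and treatment has 2 arrays, biological duplicates according to the methods, and this number limits the precision. There are 4 slides, and each carries the control, IL-1β and Empa array of a line and replicate number. Slides of replicate 1 were scanned on one day and those of replicate 2 on another. All signals are given as log2 of the background-subtracted signal relative to the array's 75th percentile, and a difference is always treated minus control within a slide.

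The line labels are in doubt. Sample titles name HK-2 for 6 arrays and RPTEC for the others, whereas another field names HK-2 for all 12. Control arrays were most alike across the labels: Pearson's r was 0.984 between HK-2 replicate 1 and RPTEC replicate 2, and 0.973 between HK-2 replicate 2 and RPTEC replicate 1. Between both control arrays of a label it was 0.880 (HK-2) and 0.875 (RPTEC). These values run over 15329 probes that were bright on every array, and probes are no independent replicates. Lines are therefore named below only as labels, and each slide's value with IL-1β is given for the 7 of the 9 genes that could be tested. The mean over all 4 slides does not depend on the labels.

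Defining markers of the proximal tubule were present in part. Of 13 proximal tubule markers, LRP2, AQP1, GGT1, SLC5A2 (which encodes SGLT2), SLC22A8 and PAX8 were well above background on all 12 arrays. The transcription factor HNF4A and the organic anion transporter SLC22A6 were well above background on 0 arrays, and the endocytic receptor CUBN on 1. CDH6 was well above background on 10 arrays, ANPEP on 6 and SLC34A1 on 4. The epithelial markers KRT8, KRT18 and EPCAM were well above background on all 12 arrays, KRT19 on 10 and CDH1 on 6. Among endothelial markers, KDR, TEK and CLDN5 were well above background on 0 arrays, PECAM1 on 1 and VWF on 3, while CDH5 was above it on 12 arrays. Of the fibroblast markers, COL1A1 was well above background on 11 arrays, COL3A1 on 2, PDGFRA on 1, and COL1A2 and PDGFRB on 0.

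Genes known to respond to IL-1β followed the treatment labels on every slide. Of 10 such genes tested, 9 rose by limma (adjusted p under 0.05) and none fell. Among the 9, CCL2 and CCL20 entered the test only through the IL-1β groups, where they are high. In no other group were both of their arrays well above background. The chemokine gene CXCL2 (mean difference 7.59), the cytokine gene IL6 (6.95), the NF-κB inhibitor gene NFKBIA (3.69), BIRC3 (3.69) and the RNase gene ZC3H12A (4.50) were higher on 4 of 4 slides. Also higher on 4 of 4 slides were the chemokine genes CCL20, CXCL1, CXCL8 and CCL2, whose arrays were in part saturated or not well above background. CCL20 rose by 7.24 and 6.95 on the slides labelled HK-2 replicate 2 and RPTEC replicate 1, and CXCL1 by 4.74 and 4.87. On the slides labelled HK-2 replicate 1 and RPTEC replicate 2 the increase was at least 2336-fold and 2116-fold for CCL20, and at least 175-fold and 240-fold for CXCL1. CXCL8 rose by 10.2, 4.33 and 3.68 on the slides labelled HK-2 replicate 1 and 2 and RPTEC replicate 1, and at least 935-fold on the other. For CCL2 the increase was at least 11.8-fold on every slide. Bounds against a dim array set the brighter array against the higher of the dim probe's own signal and the lowest signal well above background on its array. The slides of BIRC3 ran from 0.98 to 6.24, and BIRC3 was called in 10 of 16 fits without an array or slide (2.84 to 4.59), not without the slide labelled HK-2 replicate 1 or RPTEC replicate 2 or the control or IL-1β array of either. ICAM1 differed by 2.12 and missed the threshold (limma, adjusted p = 0.0514). TNFAIP3 was not tested, because its probe was marked as an outlier on 1 array. Several of these genes are ones the study itself reports on from these arrays, so the count checks the labels and is not independent evidence.

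With IL-1β, 4 of the 7 genes that could be tested rose and 0 fell. They were PLAT (12.2-fold, with a dim control array on 1 slide), TFPI2 (10.9-fold), TFPI (3.44-fold) and F3 (2.13-fold). PLAT and F3 were also called, with smaller differences, in the authors' table (2.29 and 0.70) and with normexp background correction and quantile normalization together (2.55 and 0.71), beside 3.61 and 1.09. Across all 15717 genes tested, limma called 1955 (12.4%) at an adjusted p under 0.05, with 4.52% of the genes tested higher and 7.91% (1244) lower. The median difference of the 7 genes was 1.78, against -0.11 over all genes tested. Among the 7 genes, 6 were higher on 4 of 4 slides, beside 15% of all genes tested, and SERPINE2 on 3 of 4. None was lower on 4 of 4 slides, as 24.9% of all genes tested were. PLAU, PLAUR and SERPINE2 missed the threshold. All 7 also passed the filter on dim probes through control arrays. SERPINB2 and THBD did not pass it and are described by slide. In cultures measured in bulk, more cells that express a gene and more RNA per cell cannot be told apart.

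**Figure D1:**
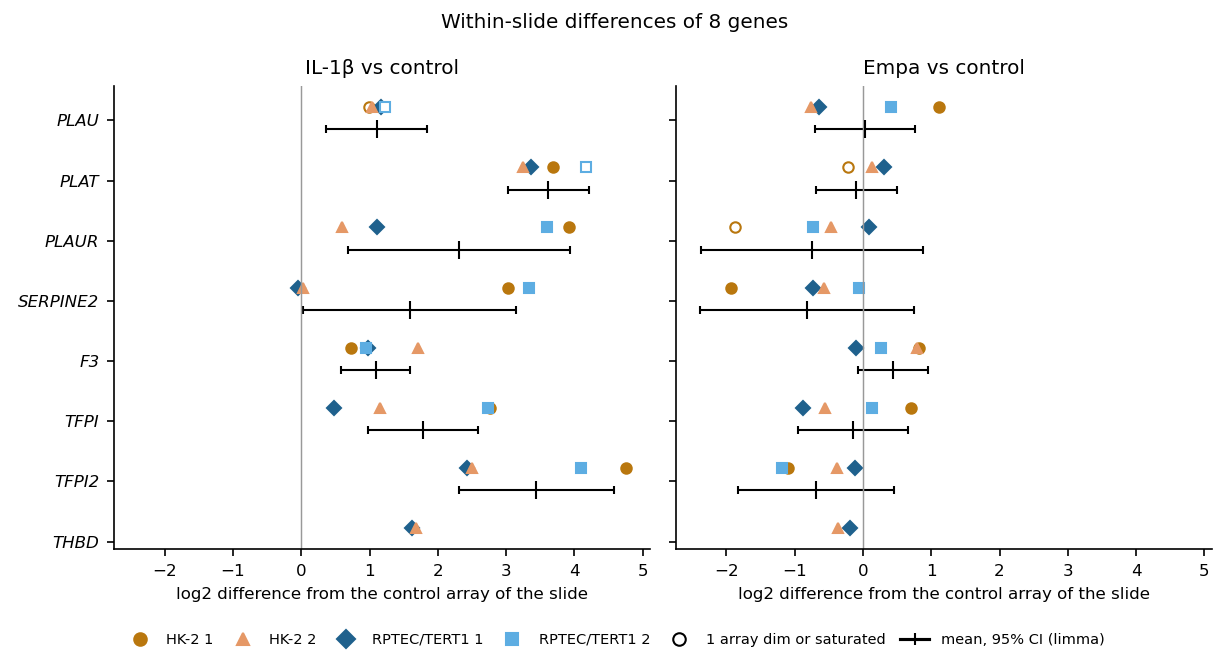
Within-slide differences (log2, treated minus control) of 8 genes with IL-1β (left) and Empa (right). Small symbols stand for the 4 slides by labelled line and replicate number, open ones have 1 array that was saturated or not well above background, and slides with both arrays not well above background are left out. Black bars give limma's mean and 95% confidence interval for the 7 genes tested. With IL-1β the slides of PLAT lie between 3.25 and 4.17, whereas those of SERPINE2 spread from -0.041 to 3.34.

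**Figure D2:**
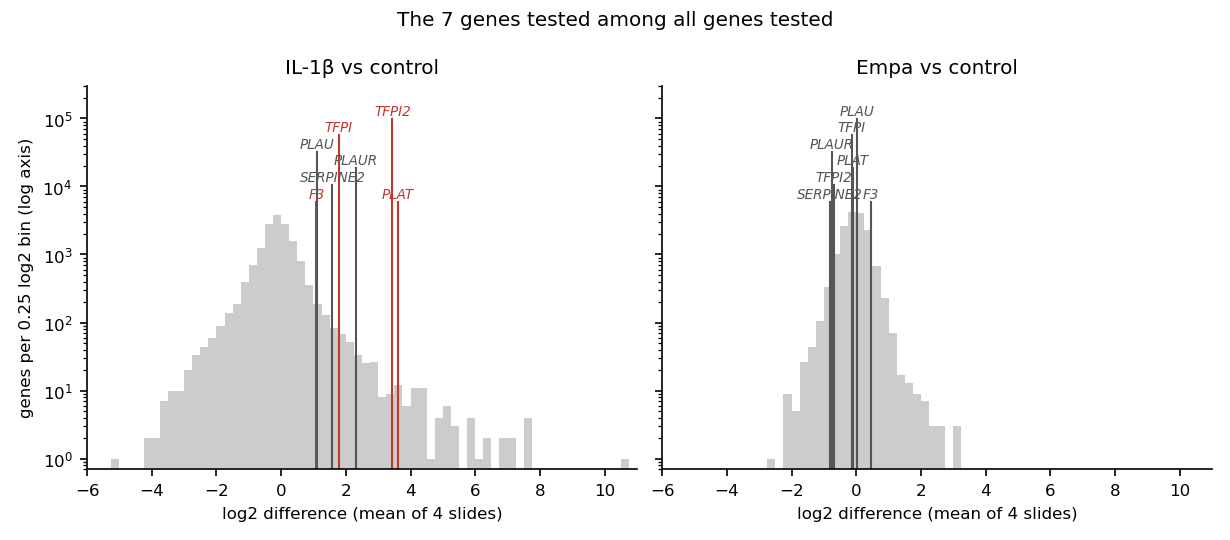
Histogram of the mean difference (log2) of all 15717 genes tested, in bins of 0.25 with a logarithmic count axis, for IL-1β (left) and Empa (right). Lines mark the 7 genes, in red where the adjusted p was under 0.05. With IL-1β all 7 lie to the right of the median of -0.11, and with Empa they lie between -0.82 and 0.44.

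Among the activators, PLAT showed the clearest response. Its probe (chr8:42032812-42032871, hg19, minus strand) gave control signals of -4.60 and -0.071 on the slides labelled HK-2 replicate 1 and 2. On the slides labelled RPTEC replicate 1 and 2 the control signals were 0.11 and -4.35, the last not well above background. With IL-1β the signals in the same order were -0.92, 3.18, 3.47 and -0.19. Control levels thus differed widely between slides, and on each slide the IL-1β array was far above its control. The differences were 3.68, 3.25, 3.36 and 4.17. The last, against a dim control array, stands for at least 17.9-fold. limma gave a mean of 3.61 (SE 0.26, 95% CI 3.02 to 4.21, adjusted p = 0.000206), higher on 4 of 4 slides.

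PLAU, which encodes urokinase, had 2 probes. The brighter (chr10:75677050-75677109, hg19, plus strand) gave control signals of 6.26 and 4.15 on the slides labelled HK-2 replicate 1 and 2, and 4.16 and 6.12 on those labelled RPTEC replicate 1 and 2. The IL-1β signals were 7.25, 5.18, 5.33 and 7.35, the first and last of them saturated. Every slide was higher with IL-1β. The difference was 1.04 (2.05-fold) on the slide labelled HK-2 replicate 2 and 1.16 (2.24-fold) on that of RPTEC replicate 1. On the slides with saturated arrays the increase was at least 1.98-fold (HK-2 replicate 1) and at least 2.33-fold (RPTEC replicate 2). The mean of 1.10 (SE 0.33) missed the threshold (limma, adjusted p = 0.0567). The dimmer probe (chr10:75674614-75674673), saturated on 0 arrays, differed by 1.77, 0.34, 1.29 and 1.43. Its mean was 1.21, and with all 19664 probes tested it passed (limma, adjusted p = 0.0139). The call for PLAU thus depends on the probe and on the processing. It was also made in the authors' table (1.05, limma, adjusted p = 0.0290) and without the Empa array of HK-2 replicate 1 (1.10, limma, adjusted p = 0.0126).

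The urokinase receptor gene PLAUR was read by a single probe (chr19:44169498-44169557, hg19, minus strand). Control signals were -3.79 and -0.012 on the slides labelled HK-2 replicate 1 and 2, and -0.19 and -3.64 on those labelled RPTEC replicate 1 and 2. With IL-1β the signals were 0.14, 0.58, 0.93 and -0.045. The IL-1β arrays thus lay within a narrow range, while the control arrays spread widely. Differences were 3.93 (15.2-fold), 0.59 (1.51-fold), 1.11 (2.16-fold) and 3.59 (12.1-fold). Their mean of 2.31 (SE 0.72) missed the threshold, although 4 of 4 slides were higher (limma, adjusted p = 0.0679). A call was made in the authors' table (1.25, limma, adjusted p = 0.0216) and with normexp background correction and quantile normalization together (1.57, limma, adjusted p = 0.0212). Leaving out a single array also gave it: the Empa array of HK-2 replicate 1 (2.31, limma, adjusted p = 0.0430), the IL-1β array of HK-2 replicate 2 (2.92, limma, adjusted p = 0.0331) or that of RPTEC replicate 1 (2.84, limma, adjusted p = 0.0393).

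**Figure D3:**
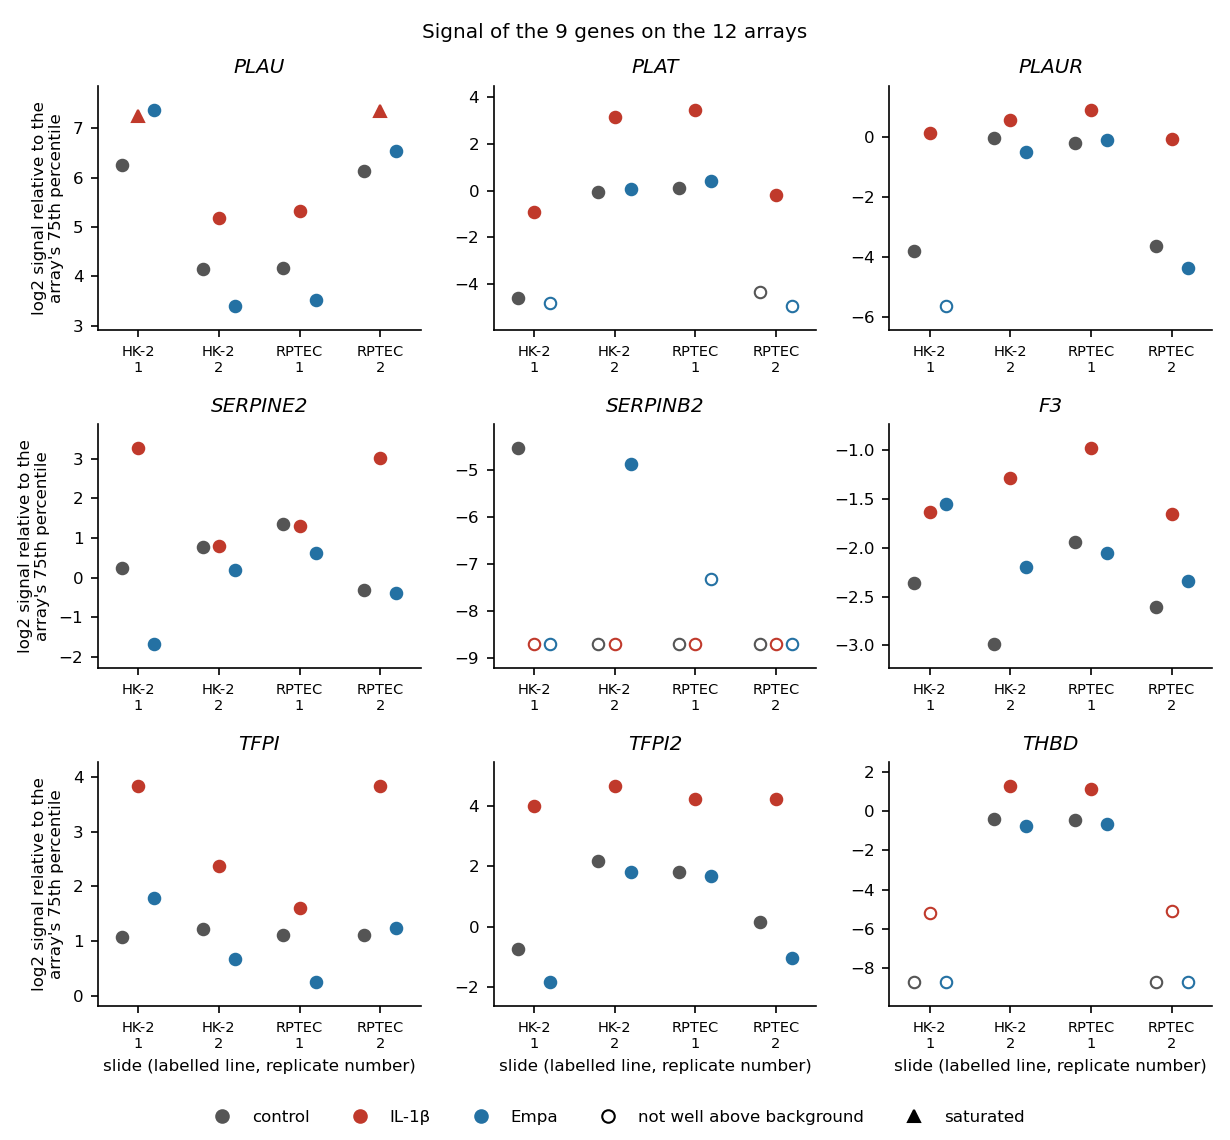
Signal of the 9 genes (log2 relative to the array's 75th percentile) on the 12 arrays, by slide. Gray, red and blue symbols are control, IL-1β and Empa arrays, open symbols are not well above background, triangles are saturated, and values of -8.71 are at the floor of 1 signal unit. On every slide the red symbol of PLAT, TFPI, TFPI2 and F3 lies above the gray one, and THBD is well above background on 2 of the 4 slides.

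SERPINE2 (protease nexin-1), an inhibitor of the activators, differed widely between slides. Its probe (chr2:224840597-224842295, hg19, minus strand) gave control signals of 0.25, 0.78, 1.36 and -0.32 on the slides labelled HK-2 replicate 1 and 2 and RPTEC replicate 1 and 2. With IL-1β they were 3.28, 0.80, 1.31 and 3.02. On the slides labelled HK-2 replicate 1 and RPTEC replicate 2 the differences were 3.03 (8.18-fold) and 3.34 (10.1-fold). On the slides labelled HK-2 replicate 2 and RPTEC replicate 1 they were 0.021 and -0.041. The mean of 1.59 (SE 0.69) was not called (limma, adjusted p = 0.172), nor was it under any of the 32 alternatives run (limma, lowest adjusted p 0.0783). Without an array or slide it ranged from 0.92 to 2.15.

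SERPINB2 (plasminogen activator inhibitor type 2) was hardly detected. One of its probes (chr18:61570202-61570261, hg19, plus strand) was well above background on 0 arrays. The other (chr18:61538974-61539033) was above it on 2 arrays, the control of HK-2 replicate 1 (-4.52) and the Empa array of HK-2 replicate 2 (-4.86). On the first slide the control was at least 2.34-fold above the IL-1β array, and the remaining slides had neither a control nor an IL-1β array well above background.

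F3 encodes tissue factor, which starts the extrinsic pathway of coagulation. Control signals of its probe (chr1:94995080-94995139, hg19, minus strand) were -2.37, -2.99, -1.94 and -2.60 on the slides labelled HK-2 replicate 1 and 2 and RPTEC replicate 1 and 2. With IL-1β they were -1.64, -1.28, -0.97 and -1.65. The highest control and the lowest IL-1β array did not overlap, and the share of all genes tested without overlap was not counted. Differences were 0.73 (1.66-fold), 1.71 (3.27-fold), 0.97 (1.96-fold) and 0.95 (1.94-fold). F3 rose by a mean of 1.09 (SE 0.23, limma, adjusted p = 0.0157), higher on 4 of 4 slides. This call was lost when the control array of HK-2 replicate 1 (1.09) or 2 (0.93), the IL-1β array of RPTEC replicate 2 (1.11), or the slide labelled HK-2 replicate 2 (0.88) or RPTEC replicate 2 (1.14) was left out.

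TFPI, the inhibitor of the tissue factor complex, was read by 3 probes. The brightest (chr2:188329008-188329067, hg19, minus strand) gave control signals between 1.08 and 1.22 on the 4 slides. With IL-1β the signals were 3.84 and 2.37 on the slides labelled HK-2 replicate 1 and 2, and 1.60 and 3.84 on those labelled RPTEC replicate 1 and 2. All 4 IL-1β arrays lay above all 4 control arrays, and how many of all genes tested did so was not counted. Differences were 2.76 (6.78-fold), 1.15 (2.23-fold), 0.48 (1.40-fold) and 2.73 (6.64-fold), so that nearly equal controls went with unequal IL-1β levels. TFPI rose by a mean of 1.78 (SE 0.36, limma, adjusted p = 0.0141). Both other probes (chr2:188343406-188343465 and chr2:188349518-188349577) were higher on 4 of 4 slides too, with means of 1.77 (limma, adjusted p = 0.0112) and 2.26 (limma, adjusted p = 0.00880) among 19664 probes. With the brightest probe the call was lost without the slide labelled HK-2 replicate 1 (1.46) or RPTEC replicate 2 (1.47). The same held without the control array of HK-2 replicate 1 (1.48), the control (1.58) or IL-1β array (1.51) of RPTEC replicate 2, and without the filter on dim probes (1.78, limma, adjusted p = 0.0524).

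TFPI2 had a single probe (chr7:93516575-93516634, hg19, minus strand). Control signals were -0.75 and 2.17 on the slides labelled HK-2 replicate 1 and 2, and 1.80 and 0.14 on those labelled RPTEC replicate 1 and 2. The IL-1β signals were 4.01, 4.67, 4.23 and 4.23, within a range of less than 1 log2 unit. Controls spread over more than 2 log2 units, and no control array reached the lowest IL-1β array. The share of all genes tested with such a gap was not counted. Differences were 4.75 (27.0-fold), 2.50 (5.64-fold), 2.43 (5.39-fold) and 4.09 (17.0-fold). TFPI2 rose by a mean of 3.44 (SE 0.51, limma, adjusted p = 0.00370), higher on 4 of 4 slides. The study picked TFPI2 on these arrays by its direction under both agents, so this direction is not independent evidence.

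For the coagulation genes that rose with IL-1β, the 250 bases before the start of the gene are shown, as RefSeq gives them for GRCh38.p14, read 5′ to 3′ on the minus strand. Capitals mark matches to the NF-κB consensus, to the AP-1 motif TGANTCA and to the TATA motif TATAAA, searched on both strands. No marked matches overlap. The windows are chr1:94541760-94542009 for F3, chr2:187554436-187554685 for TFPI and chr7:93890754-93891003 for TFPI2.
F3: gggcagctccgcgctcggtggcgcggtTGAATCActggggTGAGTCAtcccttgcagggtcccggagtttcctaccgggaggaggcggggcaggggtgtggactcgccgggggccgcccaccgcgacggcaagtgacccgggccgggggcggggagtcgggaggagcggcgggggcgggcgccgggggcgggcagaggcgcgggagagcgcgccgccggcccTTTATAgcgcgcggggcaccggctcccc
TFPI: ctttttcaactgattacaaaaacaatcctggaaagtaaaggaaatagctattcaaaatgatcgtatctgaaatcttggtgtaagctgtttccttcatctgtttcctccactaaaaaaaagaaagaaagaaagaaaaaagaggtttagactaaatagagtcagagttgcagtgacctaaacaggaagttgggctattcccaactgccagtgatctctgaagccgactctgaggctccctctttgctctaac
TFPI2: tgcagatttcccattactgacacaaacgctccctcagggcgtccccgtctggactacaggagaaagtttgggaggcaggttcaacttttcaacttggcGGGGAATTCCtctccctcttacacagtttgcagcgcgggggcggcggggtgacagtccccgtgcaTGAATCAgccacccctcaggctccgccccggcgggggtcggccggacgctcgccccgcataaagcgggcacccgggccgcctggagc

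In the F3 window, AP-1 matches begin 223 and 210 bases before the start, and a TATA match on the opposite strand begins 28 bases before it. That of TFPI2 holds an NF-κB match at 152 bases and an AP-1 match at 87 bases, whereas the TFPI window holds none of these letters. Windows were searched for 7 of the 9 genes, PLAU, PLAUR, SERPINE2, SERPINB2, F3, TFPI and TFPI2, with 9 windows. Windows on chromosome 8, where the probe of PLAT lies, were left out of this search, so PLAT was not searched. AP-1 matches were found for 4 of them (F3, TFPI2, PLAUR and SERPINB2), a TATA match for 2 (F3 and SERPINB2) and an NF-κB match for 1 (TFPI2). Among 35116 promoters of the same length, 6.57% hold the AP-1 motif, 10.7% the TATA motif and 9.96% the NF-κB consensus. These shares leave out no chromosome. A match describes letters and is not a binding site.

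THBD encodes thrombomodulin. Its probe (chr20:23026807-23026866, hg19, minus strand) was well above background on 6 arrays, all those of the slides labelled HK-2 replicate 2 and RPTEC replicate 1. On these slides the control signals were -0.40 and -0.48, and the IL-1β signals 1.28 and 1.14. The IL-1β arrays were thus 3.21-fold and 3.06-fold higher. On the slides labelled HK-2 replicate 1 and RPTEC replicate 2, neither array was well above background. The filter asks for a probe above background on both arrays of a labelled group, which THBD never met. Its control arrays on those slides were at the floor (-8.71), so a mean over all 4 slides gives no exact size. Without the filter on dim probes, limma called THBD higher with IL-1β (adjusted p = 0.0187). The filter of at least 2 arrays of any groups, chosen after the data were seen, also gave a call (limma, adjusted p = 0.00573). Both means were 2.62 and rest in part on the floor.

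Within each scan day the called genes kept their direction. For PLAT the mean difference with IL-1β was 3.52 in replicate 1 slides and 3.71 in replicate 2 slides, the latter with the dim control array. The corresponding means were 3.59 and 3.29 for TFPI2, 1.62 and 1.94 for TFPI, and 0.85 and 1.33 for F3. Those of the genes that missed the threshold were at least 1.07 and 1.13 for PLAU, which had a saturated IL-1β array in each, 2.52 and 2.09 for PLAUR, and 1.50 and 1.68 for SERPINE2.

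No gene of the 7 passed the test with Empa. limma called 0 of the 7, and among all 15717 genes it called 1 (0.00636%), DHRS2, with 1887 (12%) at an unadjusted p under 0.05. At an unadjusted p under 0.05 the count of the 7 genes was also 0. Their median difference was -0.15, against -0.024 over all genes. The IL-1β and Empa comparisons share the control arrays, so their values are given side by side and not correlated.

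SERPINE2 and TFPI2 were lower with Empa on 4 of 4 slides, as were 13.9% of all genes tested, and 0 of the 7 genes were higher on all of them, beside 12.5%. SERPINE2 differed by -1.93, -0.57, -0.73 and -0.057 on the slides labelled HK-2 replicate 1 and 2 and RPTEC replicate 1 and 2 (mean -0.82, SE 0.69, limma, adjusted p = 0.622). TFPI2 differed by -1.09, -0.37, -0.11 and -1.18 (mean -0.69, SE 0.51, limma, adjusted p = 0.577). For both genes the mean lay within 2 standard errors of 0, beside means of 1.59 and 3.44 with IL-1β. Without the Empa array of HK-2 replicate 1 the Empa means were -0.21 (SERPINE2) and -0.34 (TFPI2). Over all 16 fits without an array or slide they ranged from -1.24 to -0.21 and from -1.05 to -0.34.

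PLAUR was lower with Empa on 3 of 4 slides, with a mean of -0.74 (limma, adjusted p = 0.664). On the slide labelled HK-2 replicate 1 its Empa array was not well above background, which stands for at least 3.32-fold below control. Over the 16 fits without an array or slide the mean ranged from -1.22 to -0.098, the latter without that array. In the authors' table it was -0.17. F3 was higher on 3 of 4 slides, by a mean of 0.44 (95% CI -0.07 to 0.95, limma, adjusted p = 0.459), which was 0.26 without the same Empa array. PLAT differed by 0.13 and 0.30 on the slides labelled HK-2 replicate 2 and RPTEC replicate 1, where both arrays were well above background. The mean of -0.10 (limma, adjusted p = 0.882) also takes in the slide labelled HK-2 replicate 1, with a dim Empa array, and RPTEC replicate 2, with both arrays dim. THBD, where measured, differed by -0.36 and -0.18.

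Probes of PLAU and of TFPI gave different pictures with Empa. The brighter PLAU probe differed by 1.11, -0.75, -0.65 and 0.41 on the slides labelled HK-2 replicate 1 and 2 and RPTEC replicate 1 and 2. The dimmer probe differed by -0.46, -1.01, -0.33 and 0.081, so the sign was opposite on the first slide. For TFPI the brightest probe differed by 0.71, -0.55, -0.87 and 0.13, and that at chr2:188343406-188343465 by 1.01, -0.33, -0.66 and 0.37. Values of the TFPI probe at chr2:188349518-188349577 were all below 0, between -0.33 and -0.076. No mean of these probes was called with Empa (limma, adjusted p between 0.501 and 0.976).

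**Figure D4:**
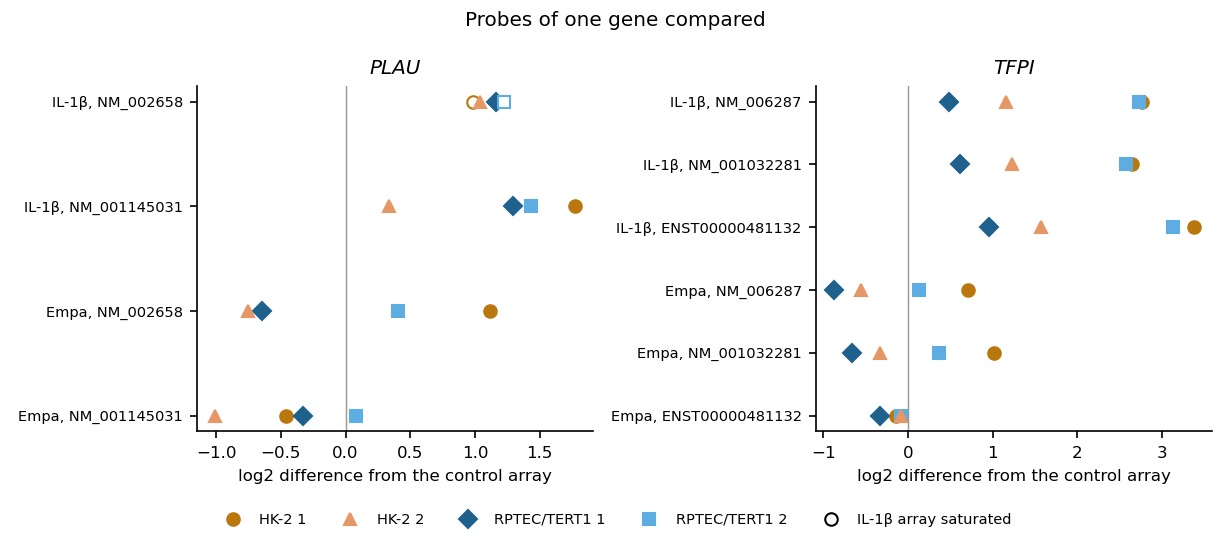
Differences (log2, treated minus control) of each probe of PLAU (left, 2 probes) and TFPI (right, 3 probes), named by the transcript that the array annotation gives. Symbols stand for the 4 slides, and open ones have a saturated IL-1β array. With IL-1β all 20 values lie above 0, whereas with Empa the signs differ between probes and slides.

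No difference in response between the labelled lines passed the test. limma's interaction term called 0 of 15717 genes (0%) for IL-1β and 0 (0%) for Empa, with 272 and 154 at an unadjusted p under 0.05. Control arrays were most alike across the labels, so each label joins unlike slides, and these counts do not show whether the lines respond alike.

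Of 20 further genes of the plasminogen system, 13 could be tested with IL-1β, with differences between -1.14 and 2.35 and a median of 0.025. Of these, 2 were called higher and 0 lower, beside 4.52% higher and 7.91% lower over all 15717 genes tested. The count of 2 includes SERPINB8, which could be tested only through its IL-1β arrays, so it is no result about the list. PLGRKT, a plasminogen receptor, rose by 0.70 (1.63-fold, limma, adjusted p = 0.0389, higher on 4 of 4 slides). SERPINB8, an intracellular serpin, was higher on 4 of 4 slides (limma, adjusted p = 0.0401), but 3 of its control arrays were not well above background. SERPINB8 passed the filter on dim probes only through the IL-1β groups, where it is high. The filter thus favored a rise, and this call is a description only. Its increase was 1.81-fold on the slide labelled HK-2 replicate 2, and at least 13.3-fold, 2.09-fold and 13.4-fold on those labelled HK-2 replicate 1 and RPTEC replicate 1 and 2. The call of PLGRKT was kept in 1 of 16 fits without an array or slide, that without the Empa array of HK-2 replicate 1, and its difference ranged from 0.58 to 0.87 in these fits. SERPINB8 was called in 7 of the 16, with a range of 1.81 to 2.90, and not without any control array, the IL-1β array of HK-2 replicate 1 or RPTEC replicate 2, or any slide other than RPTEC replicate 1. Against 2.35, SERPINB8 differed by 0.63 in the authors' table (limma, adjusted p = 0.0840) and by 0.92 with normexp and quantile normalization (limma, adjusted p = 0.0503). The largest differences not called, named after their values were seen, were those of 3 genes: F12, the contact factor, differed by -1.14 (limma, adjusted p = 0.0758), HRG, well above background on 6 arrays, by -1.05 (limma, adjusted p = 0.241), and SRPX2, a ligand of PLAUR that the study selected on these arrays, by 0.87 (limma, adjusted p = 0.0784). The plasminogen gene PLG was well above background on 1 array.

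Other genes listed with coagulation moved in both directions. Of 27 further genes, 11 could be tested, of which 2 rose and 3 fell with IL-1β, beside 12.4% called in either direction over all genes tested. The median of the 11 genes was -0.21. PROC, which encodes the anticoagulant protein C, fell 4.54-fold (limma, adjusted p = 0.000527), and its cofactor gene PROS1 fell 2.06-fold (limma, adjusted p = 0.0119). F8, the gene of factor VIII, fell 1.68-fold (limma, adjusted p = 0.0139). Each of the 3 was lower on 4 of 4 slides. Of the genes that rose, TGM2, a transglutaminase that cross-links proteins, was 5.29-fold higher (limma, adjusted p = 0.000113), and MCFD2, a factor in the transport of factors V and VIII, 1.77-fold higher (limma, adjusted p = 0.0181). TGM2 is also among the genes the study selected on these arrays. PROC (-2.38 to -2.02) and TGM2 (2.29 to 2.51) were called in all 16 fits without an array or slide. Both were also called, with smaller differences, in the authors' table (PROC -0.69, TGM2 1.40) and with normexp and quantile normalization (-0.88 and 1.64), beside -2.18 and 2.40. On 1 slide each, the dimmer array was not well above background, where PROC was at least 4.46-fold lower (RPTEC replicate 2) and TGM2 at least 6.69-fold higher (HK-2 replicate 1). PROS1 (-1.19 to -0.91) was called in 13, not without the slide labelled RPTEC replicate 2 or its control or IL-1β array. F8 (-0.82 to -0.65) was called in 11, not without the slides labelled HK-2 replicate 2 and RPTEC replicate 1 or 2, or the control arrays of HK-2 replicate 1 and RPTEC replicate 2. MCFD2 (0.72 to 0.95) was called in 10, not without the slide or the control array labelled HK-2 replicate 2, the slide, control or IL-1β array labelled RPTEC replicate 2, or the control array of HK-2 replicate 1. The difference of F8 was -0.20 in the authors' table (limma, adjusted p = 0.184) and -0.21 with normexp and quantile normalization (limma, adjusted p = 0.125). Among the genes not called, the largest difference was that of the protein C receptor gene PROCR, named after its values were seen (-0.71, limma, adjusted p = 0.184). The genes of prothrombin (F2), factors IX and X (F9, F10) and the fibrinogen chains (FGA, FGB, FGG) were well above background on 0 arrays.

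Receptors that thrombin and related proteases cleave were tested for 3 of 4 genes, and 0 were called with IL-1β (median -0.32), with 1 of them at an unadjusted p under 0.05 (limma), beside 28.2% of all genes tested. F2RL1 differed by 0.87 (limma, adjusted p = 0.163), F2R by -0.32 and F2RL3 by -0.35. The slides of F2RL1 and F2R were unlike. On the slides labelled HK-2 replicate 1 and RPTEC replicate 2, F2RL1 differed by 0.15 and -0.15, and F2R by -1.01 and -1.33. On those labelled HK-2 replicate 2 and RPTEC replicate 1, F2RL1 differed by 1.98 and 1.48, and F2R by 0.40 and 0.69. With Empa 0 genes of these further lists were called (limma). The medians of the plasminogen, coagulation and receptor lists were then -0.17, -0.079 and 0.00403.

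**Figure D5:**
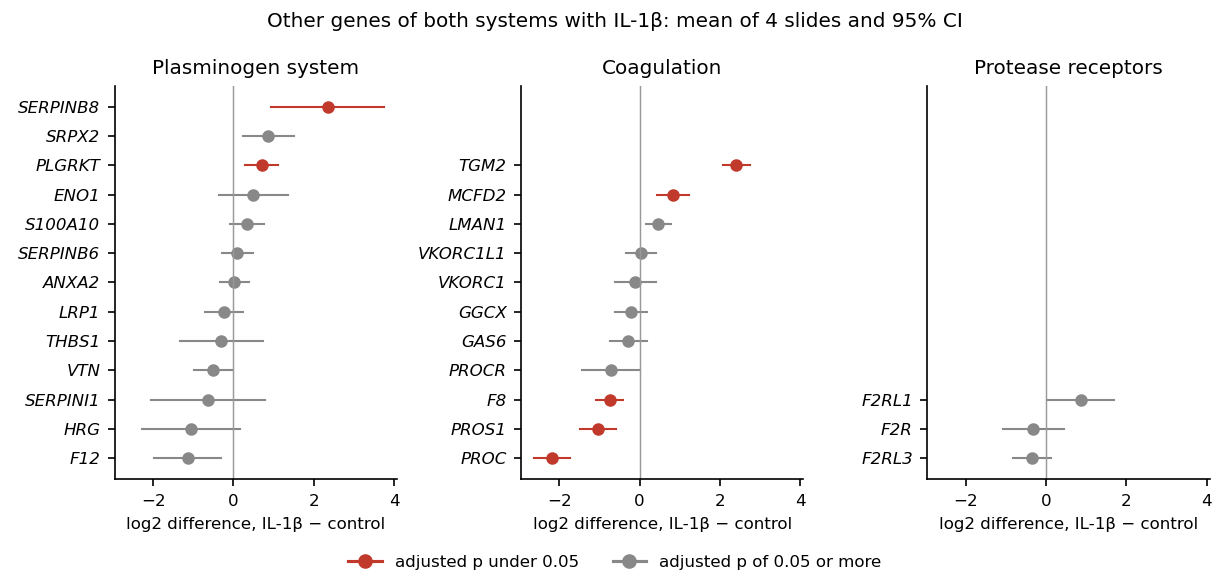
Mean difference (log2, IL-1β minus control, 4 slides) with its 95% confidence interval for the genes tested of the plasminogen system (13), of coagulation (11) and of the protease receptors (3). Red marks an adjusted p under 0.05. TGM2 (2.40) and PROC (-2.18) lie farthest from 0 among the genes listed with coagulation.

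Markers of the tubular cell also moved with IL-1β. Of 8 proximal tubule markers tested, 3 fell and 0 rose, beside 7.91% lower and 4.52% higher over all genes tested: the endocytic receptor LRP2 (5.41-fold, limma, adjusted p = 0.000115), the cadherin CDH6 (3.68-fold, limma, adjusted p = 0.000664) and the phosphate transporter SLC34A1 (limma, adjusted p = 0.00579). SLC34A1 passed the filter on dim probes only through the control arrays labelled HK-2, where it is high. The filter thus favored a fall, and the count of 3 includes this gene. The probe of SLC34A1 was well above background on 4 of 12 arrays, and the gene was at least 2.96-fold and 2.58-fold lower on the slides labelled HK-2 replicate 1 and 2. Its mean of -1.26 became -0.18 in the authors' table (limma, adjusted p = 0.148) and -0.19 with normexp and quantile normalization (limma, adjusted p = 0.153), where it was not called. LRP2 (-2.44) and CDH6 (-1.88) were called in both, with -1.36 and -1.08 in the authors' table and -1.45 and -1.20 with normexp and quantile normalization. The IL-1β array of CDH6 was not well above background on the slides labelled HK-2 replicate 1 and RPTEC replicate 2, which stands for at least 3.72-fold and 3.51-fold lower. Of 3 epithelial markers tested, EPCAM fell 1.97-fold (limma, adjusted p = 0.0188). EPCAM was called in 8 of 16 fits without an array or slide (-1.13 to -0.81), SLC34A1 in 15, not without the slide labelled RPTEC replicate 2, and LRP2 and CDH6 in all 16. Of the endothelial (1), fibroblast (2) and leukocyte (4) markers tested, 0 were called with IL-1β at an adjusted p or at an unadjusted p under 0.05 (limma), the latter beside 28.2% of all genes tested. The fibroblast marker COL3A1 had no control or IL-1β array well above background, so its result with IL-1β decides nothing. Among the leukocyte markers PTPRC and CD68 were well above background on 12 arrays, CD14 and ITGAM on 11 and CD3E on 2, and CD68 differed by 1.04 (limma, adjusted p = 0.349). With Empa 0 of the 8 proximal tubule markers were called, and their median was -0.50, against -0.024 over all genes tested. CDH6 (-0.87), GGT1 (-0.68), LRP2 (-0.58) and SLC34A1 (-0.53) were lower on 4 of 4 slides, and PAX8 (0.55) was higher on 4 of 4. For SLC34A1 the filter favored a fall with Empa too, and the median includes this gene. Both of its arrays were well above background only on the slide labelled HK-2 replicate 2 (-0.45). On that of HK-2 replicate 1 it was at least 1.35-fold lower, and on the slides labelled RPTEC both arrays were dim. Over all genes tested, 13.9% were lower and 12.5% higher on 4 of 4 slides with Empa. The part of the markers in the other results was not tested.

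Some genes followed the named ones closely over the 12 arrays once each slide's mean was subtracted, among about 12611 genes well above background on every array. These correlations are descriptions over arrays that share the treatments. For PLAT they were ZC3H12A (r = 0.991) and CD59 (0.990), for TFPI2 NEDD4 (0.996) and NFKBIZ (0.995), and for TFPI CLDN1 (0.994) and MYC (0.988). Those nearest to F3 were STX2 (0.980) and SLC30A7 (0.965). For PLAUR they were CD55 (0.997) and NDUFV2 (0.995), for PLAU ANO10 (0.971) and NSUN2 (0.968), and for SERPINE2 CX3CL1 (0.992) and the transcript ENST00000422823 (0.990).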

How the data were processed

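RNA was labelled with Cy3 and hybridized to Agilent arrays. Per the file headers, Feature Extraction 9.5.3.1 subtracted the background from each intensity and removed spatial trends within an array, and arrays were not normalized to each other. A second table that the authors deposited holds log2 values, named as quantile-normalized, with the background step and the set of arrays normalized together not stated. Its column medians were 8.31 (HK-2 replicate 1 slide) and 6.65 to 7.05 (other slides), and each of its 12 columns matched its own array best.

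Of 44495 spots, 1377 control spots were left out, as were outlier spots (1.06% to 1.61%). Spots of a probe were averaged, signals scaled to the 75th percentile (298 to 765 signal units), given a floor of 1 signal unit and log2-transformed. On an array 53.5% to 63.5% of the probes were well above background, and 7 to 214 were saturated. Each gene was read by 1 probe, the brightest of those that both arrays of any of the 6 groups marked as well above background. All 12 arrays entered a limma 3.58.1 fit (R 4.3.3) with a block per slide and 1 effect per treatment (6 residual df), p-values were adjusted by Benjamini-Hochberg at a threshold of 0.05, and the labelled lines were compared in a fit with an effect per line (4 residual df). The slide number comes from the file headers, and each line and replicate number is 1 slide, so the replicate numbers pair the arrays. Deviations of arrays of a slide from their group means correlated with r of 0.593 to 0.778 across probes. With 2 arrays per group and unlike slides within a label, these correlations are no separate evidence for the pairing. The fit was tested on simulated data.

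The genes named were the 9 genes, all called genes of the further lists or else their 3 largest differences, the IL-1β genes, and the 2 genes most correlated with each gene tested. Named outside this rule, after their values were seen, were DHRS2, F12, HRG, SRPX2, PROCR, GGT1, PAX8 and the genes given only by the number of arrays above background. The genes and lists were chosen with earlier results of these data known. Of 15717 gene names, 12772 were current RefSeq symbols, 944 older symbols and 2001 had no match. Alternatives were a fit without the block or with an effect per line, other normalizations, floors, filters and probe rules, the authors' table, single lines or replicate numbers, and each array or slide left out. Figures were drawn with matplotlib 3.10.9.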

Additional observations from a re-analysis of the deposited data

How the results depend on the processing

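The number of genes called with IL-1β (1955) was 47 with the arrays labelled HK-2 alone, 0 with those labelled RPTEC alone, 0 with replicate 1 or replicate 2 alone, and 864 with an effect per labelled line. Without the replicate block it was 8, with 0 for Empa and 0 for each interaction. Leaving out an array or slide gave 445 (without the RPTEC replicate 2 slide) to 2963 (without the Empa array of HK-2 replicate 1). Without another slide it was 890 to 1140, without a control array 790 to 1268, and without the IL-1β array of RPTEC replicate 2 or HK-2 replicate 1 it was 811 or 1057; the other alternatives 1393 to 2279, among them a filter of at least 2 arrays of any groups, chosen after the data were seen (1775). For Empa (1), 3 were called with the arrays labelled HK-2 alone and 0 with those labelled RPTEC alone, a single replicate number, the authors' table, a floor of 5, no filter, normexp with quantile normalization, the filter on all 12 arrays, or an effect per line, and 0 to 1 without an array or slide. Both interactions stayed at 0 throughout.

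With IL-1β no gene of the 7 changed direction under any alternative. PLAT and TFPI2 were called in all 16 fits without an array or slide, and F3 and TFPI in 11 each. The pairing mattered: without the replicate block PLAT (adjusted p = 0.805), TFPI2 (0.381), TFPI (0.443) and F3 (0.368) were not called by limma. With a single line or replicate number, PLAT was called in only 1 of 4 fits, and F3, TFPI and TFPI2 were called in none of them. PLAT differed by 2.29 in the authors' table. PLAU was also called with the mean over probes (1.16), normexp with quantile normalization (1.04), quantile normalization alone (1.17), the filter on all 12 arrays (1.10) and without the slide of HK-2 replicate 1 (1.14).

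With Empa some means near 0 turned; the cause was not tested. PLAU (0.030) was -0.12 with RPTEC alone, -0.17 with replicate 2 alone, -0.20 as the mean over probes, -0.00996 with normexp and quantile normalization, and -0.35 to 0.29 without an array or slide. PLAT (-0.10) was 0.039 with replicate 1 alone, 0.077 in the authors' table, 0.044 with normexp and quantile normalization, and -0.27 to 0.16 without an array or slide. TFPI (-0.15) was 0.079 with HK-2 alone and -0.45 to 0.19 without an array or slide. Signal over background limits THBD, SERPINB2 and, on 3 arrays, PLAT and, on 1 array, PLAUR, and saturation limits PLAU on 2 arrays.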
